A study of Mus musculus with 72 samples.

Results

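The mRNAs of 9 genes that are known as markers or regulators of the early embryo and of pluripotent cells were followed through the nucleus, the cytosol and the membrane fraction of mouse embryonic stem cells. The genes were Dppa2, Dppa3, Dppa4, Dppa5a, Lin28a, Utf1, Fgf4, Trim28 and L1td1. They were taken by symbol, and all 9 were found among the 51826 genes of the count files. The cells were E14TG2a, an established embryonic stem cell line grown with leukemia inhibitory factor and 2 kinase inhibitors (PD0325901, which blocks MEK, and CHIR99021, which blocks GSK3) in a medium with serum, so every library came from cells under MEK inhibition. Cultures were given 4-thiouridine (4sU), a uridine analog that enters new RNA and is read as a T-to-C (T2C) mutation after alkylation and sequencing. Labeling lasted 15, 20, 30, 40, 60 or 120 min. There were 72 poly(A)-selected libraries from 6 replicates and 4 kinds of sample (nucleus, cytosol, membrane and whole cells), 18 of each kind. Replicates 1 and 2 covered 15, 20 and 30 min, replicates 3 and 4 covered 20, 40, 60 and 120 min, and replicates 5 and 6 covered 60 and 120 min. The sample labels give 500 µM 4sU for 15 to 40 min and 100 µM for 60 and 120 min. The methods of the study also describe 60 min and longer at the higher dose, without naming the replicates. The effect of dose was therefore not tested, and comparisons of 20 min with 60 or 120 min also change the labelled dose. The study left long labeling at the higher dose out of its main analysis, and because replicates 3 and 4 may belong to it, their 120 min libraries were set aside here. This left 64 libraries, 16 of each kind, which are used below unless stated otherwise.

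Pluripotent cells are kept undifferentiated by transcription factors together with chromatin regulators and RNA-binding proteins, and the 9 genes fall into these classes and 1 signal. Dppa2 and Dppa4 encode chromatin-bound partners with a SAP domain that prime developmental genes, Dppa3 (Stella) protects the early embryo from changes in DNA methylation, Utf1 encodes a chromatin-associated regulator and Trim28 (KAP1) the corepressor that zinc finger proteins bring to retrotransposons. Dppa5a encodes a KH-domain RNA-binding protein, Lin28a the RNA-binding protein that blocks maturation of let-7 microRNAs, and L1td1 an RNA-binding protein derived from a LINE-1 retrotransposon. Fgf4 encodes a secreted growth factor through which stem cells signal to each other towards differentiation. A new mRNA is spliced and processed in the nucleus, exported, and then translated in the cytosol or, for secreted proteins, at the endoplasmic reticulum, whose membranes are taken up with the detergent-extracted membrane fraction.

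Labeling can be seen only at T, so the start of the coding sequence is shown for 4 of the genes, with each T in capitals and all other bases in lower case. Fgf4 and Dppa5a are shown because they had the most and the least label at 120 min of the genes below. Trim28 and Utf1 are examples of genes, with Dppa2 and Lin28a, whose nuclear share was above the cytosolic one at 20 min. The stretches lie within a single exon and are taken from the reference transcripts of GENCODE M21 on GRCm38, at chr7:144861505-144861594 (plus strand), chr9:78368010-78368099 (minus strand), chr7:13024719-13024808 (plus strand) and chr7:139943874-139943963 (plus strand), in this order.
Fgf4: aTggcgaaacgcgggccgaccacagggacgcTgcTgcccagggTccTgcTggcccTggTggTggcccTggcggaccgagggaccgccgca
Dppa5a: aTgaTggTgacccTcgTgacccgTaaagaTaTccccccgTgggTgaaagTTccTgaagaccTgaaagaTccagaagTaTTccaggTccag
Trim28: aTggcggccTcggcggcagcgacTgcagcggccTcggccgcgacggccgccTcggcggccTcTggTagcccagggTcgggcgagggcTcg
Utf1: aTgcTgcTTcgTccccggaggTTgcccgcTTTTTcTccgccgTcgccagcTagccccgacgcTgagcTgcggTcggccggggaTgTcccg
These 90 bases hold 10 T in Fgf4, 19 in Dppa5a, 10 in Trim28 and 20 in Utf1. Over the whole coding sequence, T made up 17.0% of the bases in Fgf4, 21.8% in Dppa5a, 21.7% in Trim28 and 18.8% in Utf1. The share of new to total RNA divides T2C mutations by the T in the reads of each gene. The T content therefore bears on how many sequenced T stand behind a share and not on its level.

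All 9 genes are protein coding. On GRCm38, Dppa2 spans chr16:48303908-48319723 and Dppa4 lies next to it on the same plus strand at chr16:48283733-48294237. Dppa5a is the shortest of the 9 (chr9:78367052-78368177, minus strand, 1.13 kb), and Trim28 the longest (chr7:12999114-13031035, plus strand, 31.9 kb). Utf1 covers chr7:139943789-139945112 and Fgf4 chr7:144847367-144865243, both on the plus strand. Lin28a is at chr4:134003330-134018841 on the minus strand, L1td1 at chr4:98726734-98738480 and Dppa3 at chr6:122626410-122630272, both on the plus strand. Lin28a overlaps Gm13061 and Trim28 overlaps Zbtb45 on the opposite strand, and although the libraries were prepared with a stranded kit, the strand setting of the counting was not spelled out in the sources used here, so the counts of these genes are less certain. The copies Dppa5b and Dppa5c match Dppa5a in 91.3% of 345 aligned bases, with 315 identical, but had at most 4 and 5 counts in a library, and Dppa3-ps had at most 1.

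Each library of the main set held 15382522 to 52975732 reads counted on genes (13185351 at the lowest over all 72), and the conversion rate, the chance that a T of a new RNA is read as C, was between 2.07% and 8.29%. At 60 min in the cytosol it was 5.83% and 7.57% in replicates 3 and 4. It was 2.38% and 2.58% in replicates 5 and 6, and the reason was not tested. The 6 stem cell markers Pou5f1, Sox2, Nanog, Esrrb, Zfp42 and Klf4 summed to 1996 to 5480 TPM (the level per length of exon, scaled to a fixed total in each library) in the whole-cell libraries, and 10 markers of differentiated lineages to 4.62 to 18.6 TPM. A total of 4 libraries stood apart. In whole cells of replicate 6, only 1.09% of 11575 genes, and 0 of 8 members, had a higher share of new mRNA in the library labelled 120 min than in the library labelled 60 min, with median shares of 0.175 and 0.374, against 93.1% to 98.4% of genes in the 15 other pairs of libraries. Results that rest on these libraries are given with and without replicate 6. The whole-cell library labelled 60 min of replicate 5 had the lowest level of 7 of the 9 members among whole-cell libraries, and the nuclear library of the same culture had the lowest level of 7 of the 9 among nuclear libraries. Values below are relative to the RNA of a sample, so that fewer cells with an mRNA and less of it per cell cannot be told apart.

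The 9 mRNAs spanned 3 orders of magnitude. The mean level in TPM over 16 whole-cell libraries was 5589.5 ± 1338 (SD) for Dppa5a, 1145 ± 536 for Trim28 and 461 ± 293 for Utf1. L1td1 had 406 ± 156 TPM, Fgf4 329.6 ± 100.5, Dppa4 171 ± 39.7, Dppa2 145 ± 74.2 and Lin28a 75.1 ± 19.9 (SD, n = 16 each), and Dppa3 had a mean of 3.80 TPM (1.67 to 6.88). Dppa5a was above Trim28 in 16 of 16 whole-cell libraries and their ranges did not overlap, and Lin28a was in the same way above Dppa3. Neighbours between these ends overlapped in their ranges: Utf1 was above L1td1 in only 9 of 16 libraries, L1td1 above Fgf4 in 8 of 16, and Dppa4 above Dppa2 in 11 of 16. Dppa3 was close to the limit of the data in every fraction, with 9 to 48 counts per nuclear library, 14 to 70 per membrane library and 24 to 57 per cytosolic library.

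**Figure D1:**
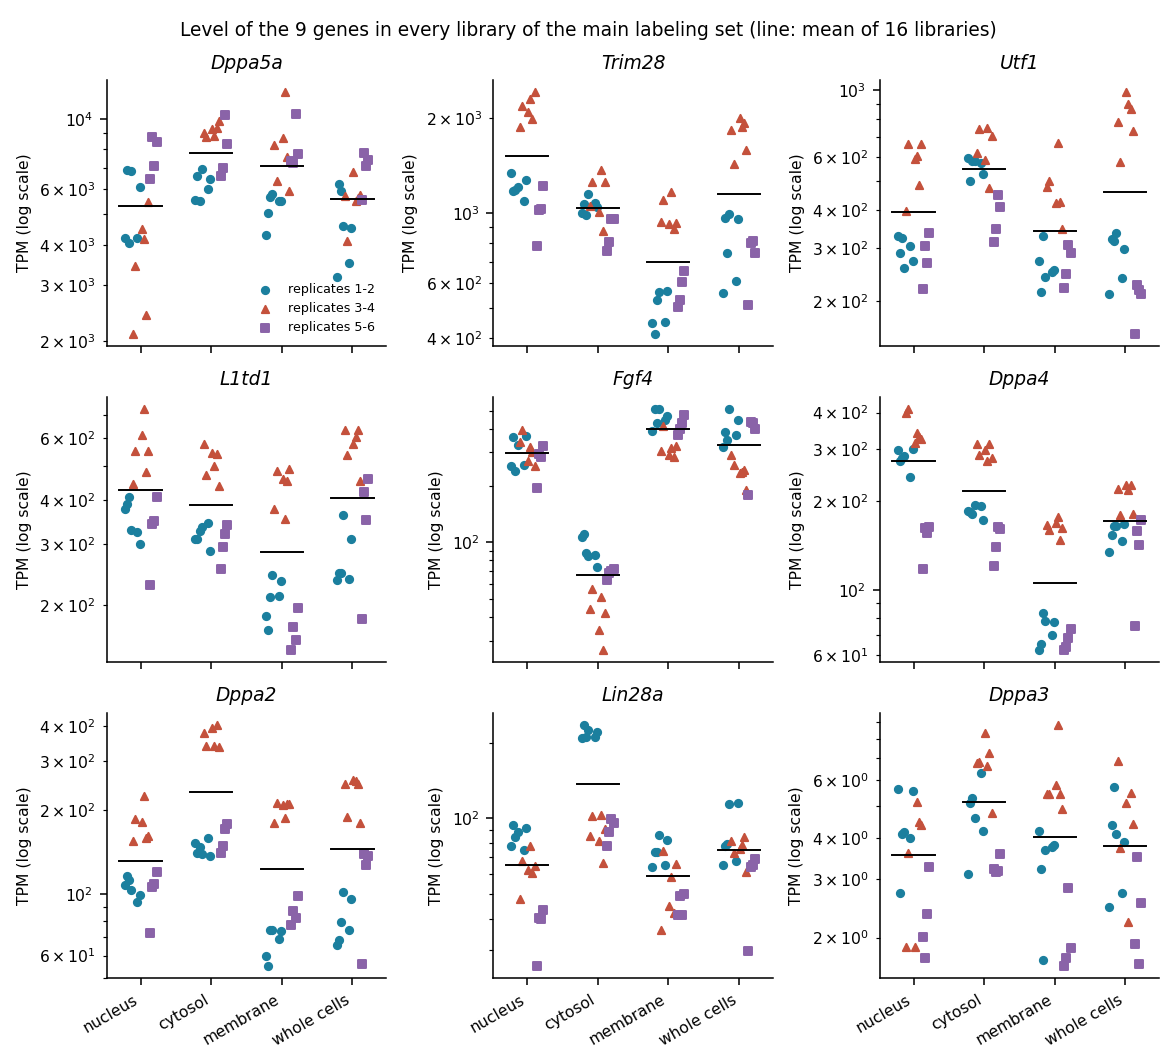
Level (TPM, log scale) of the 9 genes in each of the 64 libraries, by fraction, with 1 symbol per pair of replicates and a line at the mean of 16 libraries. Fgf4 is the gene whose cytosolic libraries (26.7 to 110.6 TPM) lie below all its nuclear and membrane libraries. In whole cells, replicates 3 and 4 lie above the other pairs for Dppa2, Utf1 and Trim28. For L1td1 they lie above replicates 1 and 2 but overlap replicates 5 and 6.

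The order changed with the fraction, and Fgf4 moved most. In the cytosol Fgf4 had a lowest, median and highest level of 26.7, 69.4 and 110.6 TPM and ranked 8 of 9. In the nucleus its levels were 194.8, 297.5 and 395.6 TPM, and in the membrane fraction 284.9, 406.9 and 512.3 TPM, where it ranked 3 of 9. Every nuclear and every membrane library was above every cytosolic one. Fractions of a culture came from the same cell pellet, and within a culture the median log2 ratio of TPM was 2.13 for nucleus over cytosol (1.25 to 3.50) and 2.63 for membrane over cytosol (1.86 to 3.41), both above 0 in 16 of 16 cultures. The ratio of nucleus to cytosol was lowest in replicates 1 and 2 (median 1.65), higher in replicates 5 and 6 (2.06) and highest in replicates 3 and 4 (2.88).

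Relative to all genes, 6 of the 9 mRNAs differed between nucleus and cytosol. In edgeR's quasi-likelihood test the 16 libraries of a fraction counted as independent, although they came from 6 replicates, so its p-values may be too small. In this test Fgf4 was higher in the nucleus by 1.70 on the log2 scale (SE 0.15, adjusted p = 1.66e-14). Lower in the nucleus were Lin28a (-1.54, SE 0.17, adjusted p = 2.73e-11), Dppa2 (-1.34, SE 0.18, adjusted p = 5.13e-09), Dppa3 (-1.02, SE 0.19, adjusted p = 4.20e-06), Utf1 (-0.96, SE 0.12, adjusted p = 6.60e-10) and Dppa5a (-0.93, SE 0.19, adjusted p = 2.56e-05). Of all 15576 genes tested, 34.2% were higher and 31.4% lower at an adjusted p under 0.05 and a log2 difference over 0.5, so that 1 and 5 of 9 stand against about 1 gene in 3 in each direction. The median difference was -0.93 over the 9 genes and -0.02 over all genes. The difference of Dppa5a lay mostly in replicates 3 and 4, where its median log2 ratio of TPM within a culture was -1.21 (0 of 6 cultures above 0), against -0.24 in replicates 1 and 2 (1 of 6) and -0.0054 in replicates 5 and 6 (2 of 4). Utf1 was at -0.88 in replicates 1 and 2, -0.12 in replicates 3 and 4 (2 of 6 above 0) and -0.40 in replicates 5 and 6. In the same order Lin28a was at -1.33, -0.44 and -1.24, and Dppa2 at -0.44, -1.09 and -0.61. Dppa3, with few counts, was at -0.25 (2 of 6 above 0), -0.80 and -0.56. The same 6 calls were made under every alternative run, leaving out replicate 5 included. The split of calls over all genes depended on the scaling, with 67.6% of the called genes higher in the nucleus with library totals (added after the data were seen) and 52.2% in the test above, as the median gene moved from -0.02 to 0.29.

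The shift of the median gene bears on the members near 0. Dppa4, the partner of Dppa2, had a nuclear level of 118, 292 and 413 TPM and a cytosolic level of 120.3, 189 and 313 TPM (lowest, median, highest), and its TPM was higher in the nucleus in 14 of 16 cultures. Its fitted difference was -0.19 (SE 0.13, adjusted p = 0.168), and it was 0.16 with library totals. Dppa2, its partner, was lower in the nucleus in 16 of 16 cultures, so the ranges of the 2 log2 ratios (-0.07 to 0.80 for Dppa4 and -1.35 to -0.27 for Dppa2) did not overlap. This difference between the partners does not depend on the scaling, because both were read in the same libraries. Trim28 had more TPM in the nucleus in 16 of 16 cultures, by a median log2 ratio of 0.34, while its fitted difference was 0.03 (SE 0.09, adjusted p = 0.734). L1td1 was at -0.37 (SE 0.13, adjusted p = 0.0106), under the difference of 0.5 used for a call.

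**Figure D2:**
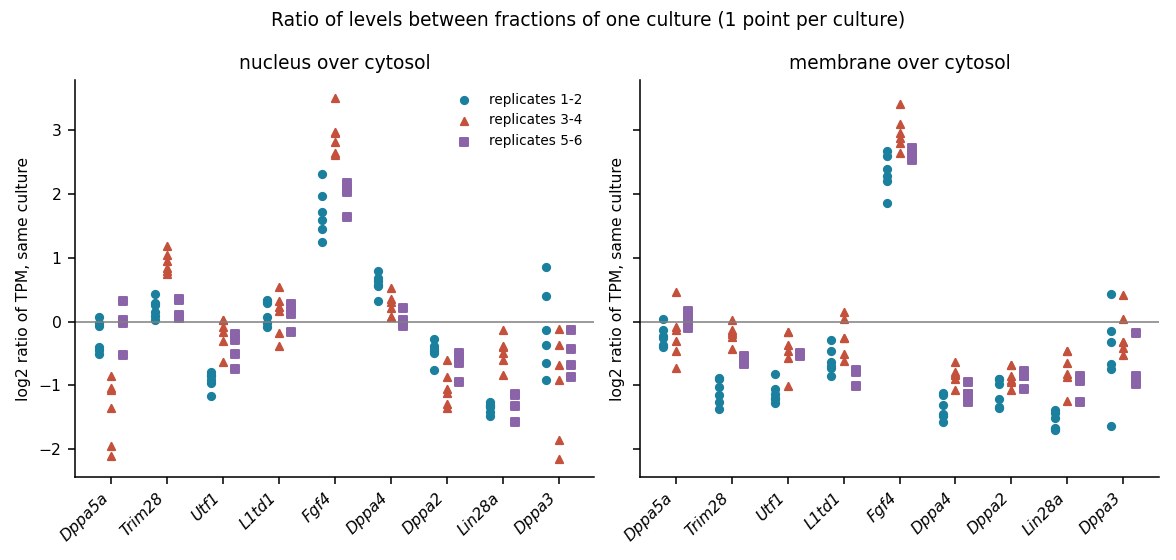
log2 ratio of TPM between fractions of the same culture for the 9 genes, 1 point per culture (16), nucleus over cytosol on the left and membrane over cytosol on the right. All Fgf4 points lie above 0 on both sides (1.25 to 3.50 and 1.86 to 3.41), and all Dppa2 and Lin28a points lie below 0 on both sides.

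In the membrane fraction Fgf4 was alone among the 9 in being higher than in the cytosol, by 3.09 on the log2 scale (SE 0.16, edgeR adjusted p = 1.07e-23). Dppa4 (-0.68, SE 0.13, adjusted p = 1.09e-05), Lin28a (-0.68, SE 0.17, adjusted p = 0.000551) and Dppa2 (-0.61, SE 0.18, adjusted p = 0.00323) were lower. Over all genes 24.2% were higher and 12.6% lower in the membrane fraction. Without replicate 3 Dppa2 was at -0.46 and no longer past 0.5. Utf1 (-0.27, adjusted p = 0.0501), Trim28 (-0.18), L1td1 (-0.09), Dppa3 (0.04) and Dppa5a (0.28) did not pass. With library totals the split of all called genes turned from 65.8% to 31.1% higher, the median gene from -0.16 to -0.48, Dppa3 to -0.25, Dppa5a to -0.0094 and Utf1 to -0.57, which then passed (adjusted p = 5.96e-05), while the direction of the 4 calls stayed.

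The pair of replicates moved several of the 9 mRNAs in whole cells. At 20 min, the time that both replicates 1 and 2 and replicates 3 and 4 covered, Dppa2 had 79.0 and 101 TPM in replicates 1 and 2 and 248 and 189 TPM in replicates 3 and 4. Utf1 had 317 and 337 TPM against 785 and 577 TPM. L1td1 and Trim28 went the same way. In these 4 genes both libraries of replicates 3 and 4 were above both of replicates 1 and 2. Fgf4 went the other way, with 349 and 509 TPM in replicates 1 and 2 and 291 and 258 TPM in replicates 3 and 4.

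In edgeR's test these differences were 1.24 for Dppa2 (SE 0.15, adjusted p = 5.16e-05), 0.99 for Utf1 (SE 0.23, adjusted p = 0.00555), 0.93 for L1td1 (SE 0.14, adjusted p = 0.000294), 0.88 for Trim28 (SE 0.20, adjusted p = 0.00514) and -0.66 for Fgf4 (SE 0.14, adjusted p = 0.00275). Dppa4 (0.20), Dppa3 (-0.03), Dppa5a (-0.22) and Lin28a (-0.34, adjusted p = 0.0881) did not pass. Over all genes 10.4% were higher and 11.9% lower in replicates 3 and 4, so the level of these mRNAs differed between pairs as it did for 22.3% of all genes. The calls rest on few libraries: without replicate 3 only Dppa2 passed, and 344 genes in place of 3755, and without replicate 4 Dppa2, Utf1 and L1td1 passed, and 1454 genes. The library then left alone is assumed to vary like the other whole-cell groups. The cultures of the pairs differ in more than the labels name, and what set their levels apart was not tested.

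The labeling times were compared next, to ask whether levels differed between them. All libraries compared had 4sU, so a change already present at the earlier time would not be seen. No member was called between 60 and 20 min in whole cells of replicates 3 and 4, nor between 120 and 60 min in replicates 5 and 6. In both comparisons 0% of genes were higher and 0% lower with edgeR, and DESeq2 called 0 genes as well. An unadjusted p under 0.05 was reached by 747 and 123 genes with edgeR. In replicate 6 the whole-cell shares went against the labels of 60 and 120 min. The second comparison therefore cannot show whether levels changed between these times. Without replicate 6 it has 1 library at each time and takes its spread from the other groups, so it says little. Fgf4 was then at 0.25 in place of 0.06. The other 8 members were between -0.04 (L1td1) and 0.31 (Utf1) from 20 to 60 min and between -0.80 (Dppa3) and 0.12 (Lin28a) from 60 to 120 min. Between 120 and 20 min in replicates 3 and 4, which uses the libraries set aside elsewhere, 0.0712% of genes were higher and 0.0415% lower in whole cells, 1.56% and 1.35% in the nucleus, and 0.497% and 0.547% in the cytosol, and no member was among them. The difference of Fgf4 was -0.48 in whole cells (SE 0.14, adjusted p = 0.175), -0.52 in the cytosol (SE 0.15, adjusted p = 0.123) and -0.26 in the nucleus (SE 0.15, adjusted p = 0.336), and none of these passed. With the replicate number as a block, the cytosolic value was -0.51 and passed (edgeR adjusted p = 0.000556), where 6.41% of all genes were called. The labels do not tie these numbers across times. Without replicate 3 the cytosolic value was -0.70, but this sets 1 library against 1 with the spread of the other groups. The other 8 members were between -0.05 (Dppa3) and 0.22 (Trim28) in the cytosol and between -0.44 (Dppa3) and 0.23 (Dppa2) in whole cells. In the nucleus they were between -0.15 (Dppa4) and 0.89 (Dppa3), with Trim28 at 0.41 (adjusted p = 0.217) and L1td1 at 0.40 (adjusted p = 0.288).

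For 8 of the 9 genes the new share of the mRNA was higher in every library of 120 min than in the libraries of 15 min of the same fraction, and Fgf4 was far ahead of the rest. The share of new to total mRNA is the ratio of T2C mutations to sequenced T (T bases in reads) in exons, divided by the conversion rate. No background was subtracted. Libraries without 4sU are not used here, so a share near 0.01 may hold sequencing error, whose level was not measured. In the cytosol Fgf4 had shares of 0.177 and 0.125 at 15 min, 0.253, 0.342, 0.347 and 0.355 at 20 min (replicates 1 to 4), 0.820, 0.668, 1.14 and 1.03 at 60 min (replicates 3 to 6) and 1.12 and 1.13 at 120 min. The 4 values at 60 min were all above those at 15 to 40 min. Values above 1 are a limit of the estimate, not a share of molecules. At 15 min the cytosolic share of Fgf4 was above that of 99.2% of 11575 genes. These had at least 400 sequenced T in exons in each of the 64 libraries.

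Fgf4 mRNA of the membrane fraction was labeled later than that of the cytosol. At 15 min its share was 0.0278 and 0.0330 in the membrane fraction and 0.116 to 0.164 in the nucleus. At 20 min it was 0.0475, 0.0687, 0.143 and 0.122, and by 60 min 0.652, 0.601, 0.808 and 0.700. The membrane share was below the cytosolic share in each culture up to 60 min. At 120 min it was 1.14 and 1.04, no longer apart from the cytosol.

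At the other end, Dppa5a had gained the least label by 120 min. Its cytosolic shares were 0.0151 and 0.0112 at 15 min, 0.0303, 0.0271, 0.0608 and 0.0522 at 60 min and 0.0910 and 0.0846 at 120 min. From 15 to 40 min the mean cytosolic shares of Dppa4 and Trim28 were lower. At 30 min they were 0.0111 and 0.0101, against 0.0173 for Dppa5a. After 120 min only 3.38% of genes had a lower cytosolic share than Dppa5a, and 0.924% a lower nuclear share. Values of the pairs at 60 min did not overlap, with replicates 5 and 6 above replicates 3 and 4, and this held in the cytosol for all 8 genes. It was not particular to them. The median cytosolic share over 11575 genes was 0.0924 and 0.0929 in replicates 3 and 4 and 0.206 and 0.181 in replicates 5 and 6.

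The other 6 genes lay between these ends. The mean share at 120 min in the cytosol was 0.367 for L1td1, 0.270 for Utf1, 0.261 for Dppa2, 0.242 for Lin28a, 0.205 for Dppa4 and 0.158 for Trim28 (n = 2 each), against a median of 0.370 over all genes. In the nucleus the same means were 0.339, 0.284, 0.292, 0.253, 0.274 and 0.253, against 0.430. L1td1 was the only one of the 6 whose cytosolic and membrane (0.348) shares were above its nuclear share at 120 min. In whole cells, the library labelled 120 min of replicate 6 had lower shares than replicate 5 for every member, for example 0.177 and 0.356 for L1td1.

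**Figure D3:**
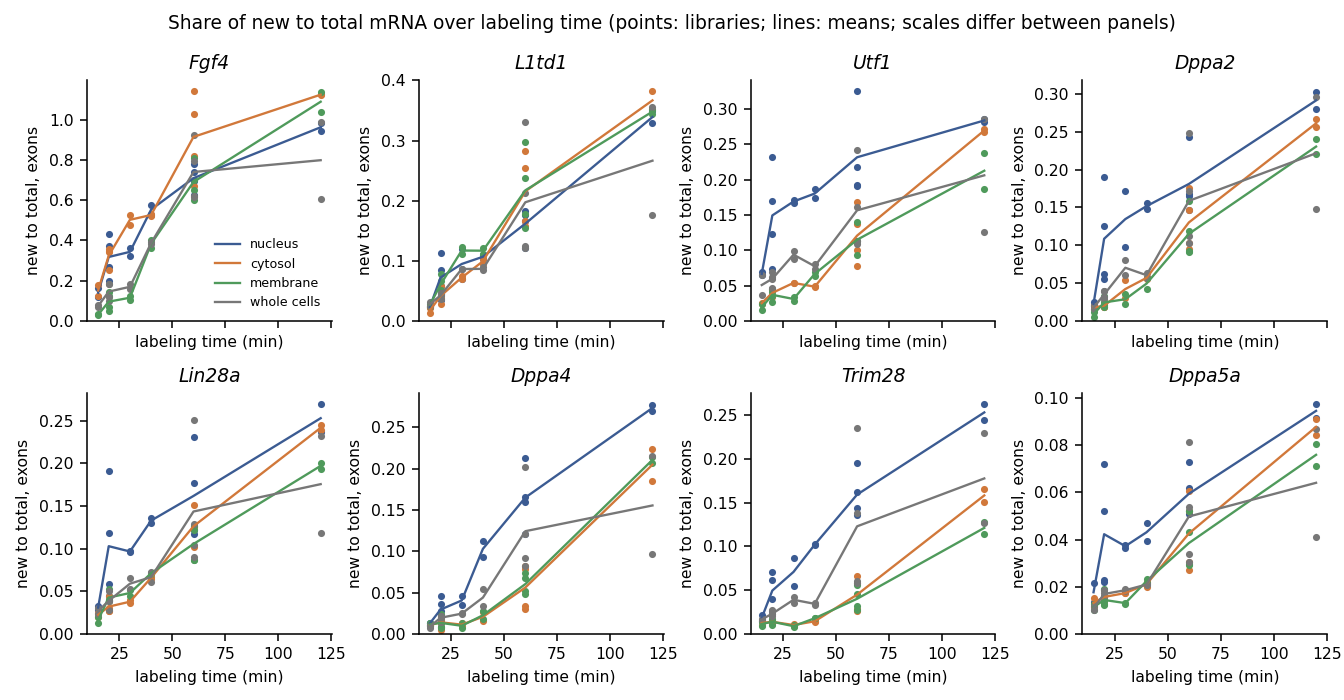
Share of new to total mRNA in exons against labeling time (min) for 8 genes, 1 point per library of the main set and a line through the means, colored by fraction, with a scale of its own in each panel. Fgf4 reaches about 1 at 120 min while Dppa5a stays under 0.1, and the whole-cell lines bend at 120 min, where the library labelled 120 min of replicate 6 is low.

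At 20 min the nuclear share was above the cytosolic share for 4 of the 8 genes tested. Dppa2 had nuclear shares of 0.0557, 0.0625, 0.190 and 0.126 and cytosolic shares of 0.0177, 0.0180, 0.0210 and 0.0231 (replicates 1 to 4), with no overlap. Utf1 had 0.0728, 0.123, 0.232 and 0.170 in the nucleus and 0.0341 to 0.0445 in the cytosol. With limma on log2(share + 0.01), the difference was 1.84 for Dppa2 (SE 0.41, adjusted p = 0.00760), 1.58 for Utf1 (SE 0.37, adjusted p = 0.00886), 1.26 for Lin28a (SE 0.44, adjusted p = 0.0378) and 1.26 for Trim28 (SE 0.36, adjusted p = 0.0191). Dppa5a (0.91, adjusted p = 0.0789), Dppa4 (0.65), L1td1 (0.61) and Fgf4 (-0.08) did not pass, and Dppa3 was not tested for want of sequenced T. Over all 12377 genes 47.6% had a higher and 0.113% a lower nuclear share, so 4 of 8 is close to the share over all genes.

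The nuclear shares of 20 min differed between the pairs of replicates. In replicates 1 and 2 the mean nuclear and cytosolic shares of Dppa2 were 0.0591 and 0.0179, and in replicates 3 and 4 they were 0.158 and 0.0221. The nucleus was above the cytosol in each of the 4 cultures for Dppa2, Utf1, Lin28a, Trim28, Dppa5a and L1td1. Without replicate 4 none of the 4 calls was kept (1585 genes called in place of 5910), and without replicate 2 or replicate 3 those of Dppa2 and Utf1 were, while those of Lin28a and Trim28 were lost (2927 and 2454 genes called).

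At 60 min Trim28 and Dppa4 passed the same test. Trim28 had nuclear shares of 0.195, 0.144, 0.162 and 0.136 and cytosolic shares of 0.0262, 0.0279, 0.0666 and 0.0585 (replicates 3 to 6). Dppa4 had 0.213, 0.160, 0.165 and 0.121 in the nucleus and 0.0339, 0.0295, 0.0782 and 0.0824 in the cytosol. Neither gene's ranges overlapped. The limma differences were 1.70 for Trim28 (SE 0.39, adjusted p = 0.0102) and 1.49 for Dppa4 (SE 0.41, adjusted p = 0.0188), with 25.4% of 12507 genes higher and 1.18% lower in the nucleus, so 2 of 9 is near the share over all genes. Utf1 (0.91, adjusted p = 0.0734), Dppa2 (0.46), Dppa5a (0.44), Lin28a (0.30), Fgf4 (-0.34) and L1td1 (-0.37) did not pass, nor did Dppa3 (-0.31), which had 0 to 4 T2C mutations in these libraries.

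Within pairs, the mean nuclear and cytosolic shares of Trim28 at 60 min were 0.170 and 0.0270 in replicates 3 and 4 and 0.149 and 0.0626 in replicates 5 and 6. For Dppa4 they were 0.187 and 0.0317, and 0.143 and 0.0803. Without replicate 3 or without replicate 4 both calls were lost (adjusted p between 0.0747 and 0.136), while 309 and 35 genes in place of 3329 were called. For Trim28 the nuclear share was above the cytosolic share in each culture from 15 min on. At 30 min its nuclear shares were 0.0544 and 0.0872. Its cytosolic shares were then 0.0115 and 0.00857, no higher than at 15 min and near the level that may hold sequencing error.

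Between the membrane fraction and the cytosol no member passed the test of shares at 60 min. The limma difference was -0.38 for Fgf4 (SE 0.21, adjusted p = 0.694), whose membrane share was lower in 4 of 4 cultures, and it was -0.25 for Lin28a, -0.16 for Dppa2, -0.09 for Dppa5a, -0.08 for Trim28, -0.03 for Utf1, 0.01 for L1td1 and 0.18 for Dppa4. Dppa3, at 0.67 (SE 1.06), had 0 to 5 T2C mutations in these libraries. An unadjusted p under 0.05 was reached by none of the 9. Over all 12522 genes 0.0160% were higher and 3.14% lower in the membrane fraction. With the culture as a block, which pairs fractions of the same pellet, 831 genes were called in place of 395 and still no member. Without replicate 5 or without replicate 6 no gene was called.

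Dppa3 gave no share that could be read. It had 171 to 2039 sequenced T in exons per library. Of 64 libraries 33 held 0 T2C mutations, which allows a share of up to 0.0313 to 0.520 depending on the library (3 counts, counting error only). The highest count was 10 T2C mutations, in the nuclear library of 120 min of replicate 6, where the share was 0.383. No half-life was fitted for this gene.

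Introns of the nuclear libraries carried more label than exons in all 8 genes tested. The counts of T in introns are pooled over the introns of a gene. At 20 min Dppa5a had intron shares of 0.817, 0.970, 0.981 and 0.990 and exon shares of 0.0230, 0.0220, 0.0722 and 0.0519 (replicates 1 to 4). The limma difference was 4.30 for Dppa5a (SE 0.38, adjusted p = 4.04e-07), 3.09 for Lin28a (SE 0.39, adjusted p = 3.45e-06), 2.64 for Trim28, 2.60 for L1td1, 1.93 for Dppa2, 1.82 for Utf1 and 1.76 for Dppa4 (adjusted p from 2.21e-05 to 0.00541), and it was lowest for Fgf4, at 1.23 (SE 0.27, adjusted p = 0.000427). The median was 2.27 over the 8 genes and 1.98 over all 11282 genes tested, of which 85.6% were higher and 0.186% lower in introns, so that 8 of 8 is near the share over all genes.

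The genes differed in how fast their introns were labeled. At 15 min the mean nuclear intron share was 0.597 for Dppa5a, above 98.4% of genes, 0.363 for Lin28a (91.8%) and 0.323 for Fgf4 (88.9%), against a median of 0.135 over 12866 genes (n = 2 libraries each). Dppa4 had 0.0567, with only 15.1% of genes lower. Dppa4 stayed low, with 0.0702, 0.0875, 0.175 and 0.148 at 20 min and 0.499, 0.422, 0.589 and 0.499 at 60 min. At 60 min 7.73% of genes had a lower intron share than Dppa4. Of the T sequenced for Dppa4 in nuclear libraries, a median of 39.5% came from introns (20.0% to 49.9%), the largest value of the 9. The median was 16.2% for Dppa2, 9.44% for Trim28 and 2.22% for Fgf4. Dppa4 had the lowest intron share of the 8 genes at 15, 20 and 60 min, while at 120 min Lin28a was lower (0.742 against 0.774).

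**Figure D4:**
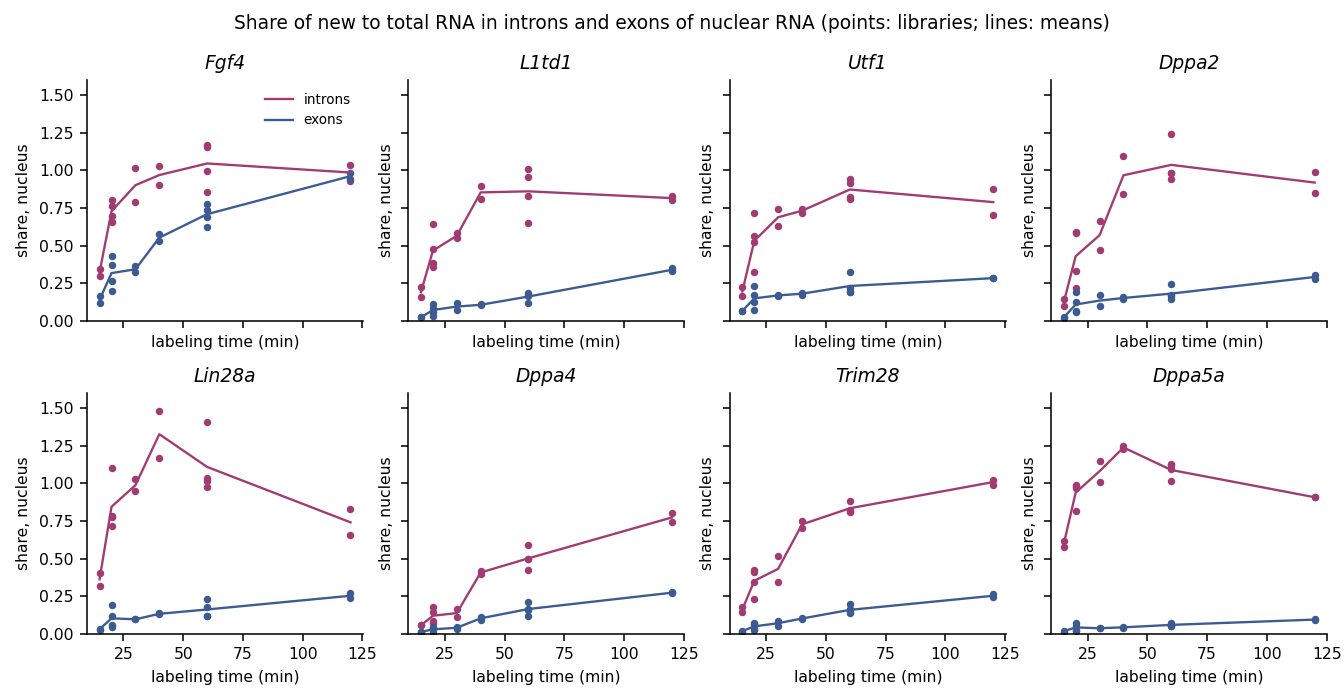
Share of new to total RNA in introns and in exons of the nuclear libraries against labeling time (min) for 8 genes, 1 point per library and a line through the means. Intron shares of Dppa5a, Lin28a and Fgf4 are above 0.6 in every library of 20 min, while those of Dppa4 stay at or under 0.175 and reach 0.801 and 0.747 only at 120 min.

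Within the exons of a gene, the share differed by position in several genes. In the 6 nuclear libraries of 15 and 20 min, the terminal exon was compared with the most upstream exon of at least 100 bases. Trim28 had a mean share of 0.0630 ± 0.0414 (SD) in its terminal exon and 0.0250 ± 0.0115 in an exon 5.97 kb upstream, higher at the 3′ end in 6 of 6 libraries. Fgf4 had a mean of 0.264 (0.119 to 0.437) against 0.0538 to 0.274 at 3.41 kb, and Dppa2 0.100 ± 0.0795 against 0.0508 ± 0.0699 at 8.01 kb, also in 6 of 6. The terminal exon was the higher in 5 of 6 libraries for Dppa4 and Utf1, in 4 of 6 for Lin28a and in 1 of 6 for Dppa5a, whose exons lie within 1 kb of each other. The means went against these counts for Dppa4 (0.0296 at the end and 0.0317 upstream) and Lin28a (0.0790 and 0.0995). These are descriptions of single exons with few T2C mutations, and L1td1 and Dppa3 were not compared in this way.

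A half-life was fitted to summarise the rise of the shares, as 1 exponential with a delay of 5 min. It describes how fast label replaced the RNA of a fraction, not the rate of any one step, and values above 120 min lie beyond the longest labeling time. Fgf4 had the shortest values, with 31.5 min in the nucleus, 23.6 min in the cytosol and 42.4 min in the membrane fraction, where odd and even replicates fitted alone gave 29.5 and 33.6, 22.9 and 24.3, and 40.0 and 45.2 min. Only 0.454% of 12328 genes had a shorter cytosolic value. Dppa5a had the longest, with 669, 877 and 996 min, and 95.5% of genes had a shorter cytosolic value. The cytosolic half-life of Dppa5a was 37.2 times that of Fgf4. The fitted curve cannot exceed 1, while the mean share of Fgf4 at 120 min was 1.12 in the cytosol and 1.09 in the membrane fraction. Its half-lives there, and this ratio, are therefore approximate.

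The remaining genes lay between 162 and 737 min. The cytosolic value was 176 min for L1td1, 279 min for Utf1, 283 min for Dppa2, 295 min for Lin28a, 458 min for Dppa4 and 592 min for Trim28. In the nucleus Utf1 (162 min), Dppa2 (192 min), Lin28a (225 min), Dppa4 (240.3 min), Trim28 (246 min) and Dppa5a (669 min) were shorter than in the cytosol, and the fits of odd and even replicates did not overlap between the 2 fractions. L1td1 and Fgf4 were the exceptions, with nuclear values (199 and 31.5 min) longer than cytosolic ones. Faster labeling of the nucleus was the general pattern. Over 11575 genes the median nuclear and cytosolic shares were 0.240 and 0.146 at 60 min and 0.430 and 0.370 at 120 min. In whole cells the values were 42.8 min for Fgf4, 219.6 min for L1td1, 274 min for Utf1, 279 min for Dppa2, 328 min for Lin28a, 374 min for Trim28, 403 min for Dppa4 and 989.7 min for Dppa5a, and without replicate 6 they were 44.9, 210.6, 245, 262, 314, 381, 379.5 and 908 min, which left Dppa4 and Trim28 close to each other.

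**Figure D5:**
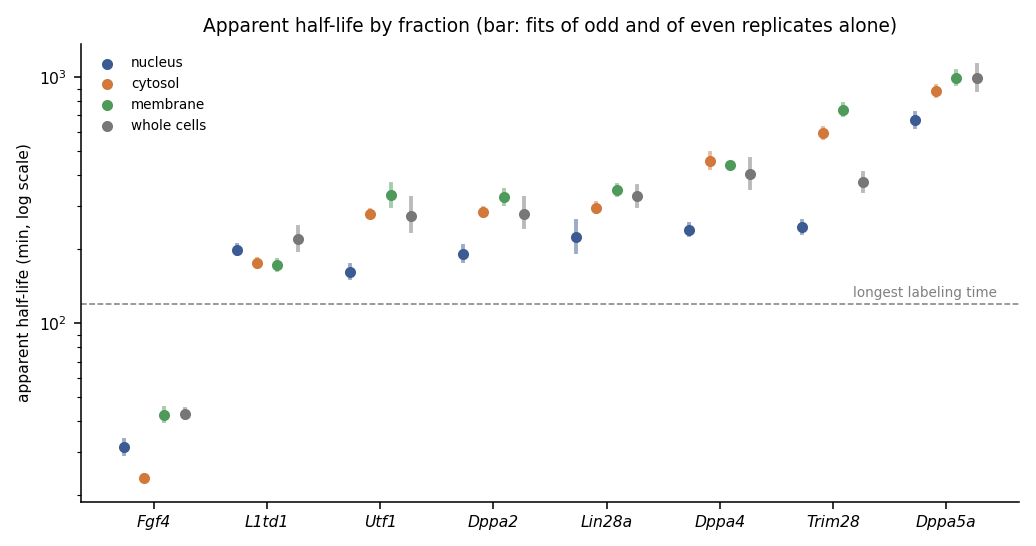
Apparent half-life (min, log scale) of 8 genes in the 4 kinds of sample, with a bar from the fit of odd replicates alone to that of even replicates alone and a dashed line at the longest labeling time of 120 min. Fgf4 alone lies below the line (23.6 to 42.8 min), and Dppa5a lies highest (669 to 996 min).

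The genes whose shares ran closest to each member were found by the root mean square difference over the 64 libraries among 11575 genes. For Dppa5a these were Rps3 (0.00494) and Tpt1 (0.00571), which encode a ribosomal protein and an abundant translation-linked protein, and for Fgf4 the receptor gene Epha2 (0.0711) and the potassium channel gene Kcnk5 (0.0793). The nearest genes were Copg1 for Trim28 (0.0103), Nsmce4a for Dppa4 (0.0149), Anp32b for Lin28a (0.0163), Nolc1 for Utf1 (0.0172), Rsl1d1 for Dppa2 (0.0176) and Lin7c for L1td1 (0.0280). Among the members, Dppa4 and Trim28 (0.0233) and Dppa2 and Lin28a (0.0236) ran closest, and Dppa2 and Dppa4 were 0.0461 apart.

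Of 20 other stem cell genes, 6 were higher and 8 lower in the nucleus than in the cytosol, led by Nodal (2.41), Lefty1 (1.86), Tet1 (1.76) and Tcl1 (-1.57). In the membrane fraction 5 were higher and 2 lower, near the 24.2% and 12.6% over all genes. The 4 largest differences there were those of Nodal (4.27), Lefty1 (4.06), Gdf3 (3.46) and Tdgf1 (3.24), which encode secreted or membrane-anchored signals, as Fgf4 (3.09) does. In their shares 13 of 19 tested were higher and 1 lower in the nucleus at 20 min (largest for Tcl1, Trim71, Esrrb and Mybl2), 2 higher and 1 lower at 60 min (Mybl2, Phc1 and Tet1), and none differed between membrane fraction and cytosol. All 18 tested had higher intron than exon shares, as did 85.6% of all genes. For nuclear shares all genes stood at 47.6% and 0.113% at 20 min and at 25.4% and 1.18% at 60 min, and for nuclear levels at 34.2% and 31.4%. Between the pairs of replicates at 20 min 8 were higher and 3 lower in replicates 3 and 4 (10.4% and 11.9% over all genes), the largest of them Lefty2 (-5.83), Lefty1 (-5.54), Zfp296 (1.47) and Sall4 (0.99), and none was called between labeling times. Of 10 genes of the early 2-cell-like state, a state that Dppa2 and Dppa4 are known to promote, the summed level was 1.48 to 8.71 TPM in whole cells, at most 7 were tested in any comparison, and only Zscan4d and Zscan4c passed one (both higher in the nucleus, by 1.71 and 1.26, and Zscan4d in the membrane fraction, by 0.71).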

How the data were processed

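Mouse embryonic stem cells were labeled with 4sU, a pellet of each culture was extracted in sequence into cytosol, membrane fraction and nucleus in the presence of cycloheximide, and RNA of the fractions and of whole cells was alkylated and sequenced. The authors aligned reads to exons and to introns with STAR 2.7.6. They deposited raw counts per gene from HTSeq 0.11.1, without normalization (the submitters' processing notes also name RSEM 1.3.3). In each library 30.4% to 48.8% of reads were assigned to no gene by the authors' counting, for any reason, and were left out. Their second kind of file held, for exons, introns and whole genes, deposited counts of sequenced T and of T2C with known variants left out, a conversion rate per library as a fraction, estimated by a mixture model, and the ratio of T2C to T divided by that rate. This ratio was recomputed from the counts, and the difference from the deposited one was at most 1.2e-13.

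TPM was computed here from the counts and the union of exons (GENCODE M21, GRCm38), for which 193 genes had no annotation. Levels were compared with edgeR 4.0.16 (R 4.3.3; filterByExpr, TMM, quasi-likelihood test), and DESeq2 1.42.0 was an alternative. Shares were compared with limma 3.58.1 (trend) on log2(share + 0.01) over genes with at least 400 sequenced T in every library used. P-values were adjusted by Benjamini-Hochberg over all genes tested, and a call required both adjusted p < 0.05 and a log2 difference above 0.5 in size. Differences of levels are on the log2 scale of TMM-scaled counts. Fractions of a culture are paired by their pellet (deviations from the group means correlated at -0.07 to 0.59 for nucleus with cytosol and 0.53 to 0.86 for membrane with cytosol over 16 cultures), and the culture as a block was an alternative that changed the call of no member in these comparisons. By the labels, cultures of different times share only a replicate number. Levels still followed the pair, with cytosolic Dppa2 at 137 to 159 TPM in replicates 1 and 2, 336 to 404 TPM in replicates 3 and 4 and 140 to 178 TPM in replicates 5 and 6. A block for culture does not remove a difference between fractions that varies by pair. Replicates are independently passaged cultures. Each test was tested on simulated data first. Alternatives were other scalings, filters, minimum T counts (100, 2000) and pseudocounts (0.05), the block, and leaving out each replicate. The rule names all 9 members in every comparison, whatever their values; for labeling times, values are given for Fgf4 and the range for the others. Other lists are given as counts with at most 4 called genes of the largest difference. The members and lists were chosen with earlier results of these data known. Libraries without 4sU are not used here.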

Additional observations from a re-analysis of the deposited data

Results flagged for a closer look

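Among 158 groups of 4 libraries examined for the members (levels, exon shares and nuclear intron shares), 10 held a library far from the other 3, close to the rate of 1 in 20 that chance gives. Of these, 4 concern the exon share of Dppa3, where a library with a few T2C mutations stood above libraries with none or almost none: 0.106 in the cytosol at 20 min (replicate 1, the others at 0), 0.366 in the membrane fraction at 60 min (replicate 6, the others 0 to 0.0174), 0.0574 in the nucleus at 60 min (replicate 4, the others at 0) and 0.0454 in whole cells at 20 min (replicate 4, the others at 0). The cytosolic share of Fgf4 at 20 min was 0.253 in replicate 1, below 0.342 to 0.355 in the others, and the membrane share of Lin28a at 20 min was 0.0526 in replicate 4, above 0.0391 to 0.0394. Dppa5a had 7807 TPM in the whole-cell library labelled 60 min of replicate 6, above 5556 to 5752 TPM in the others; this is a library whose shares go against its label. In nuclear introns at 60 min, replicate 5 was above the others for Dppa2 (1.24 against 0.942 to 0.985) and for Lin28a (1.41 against 0.976 to 1.04). At 20 min the nuclear intron share of Dppa5a was 0.817 in replicate 1, below 0.970 to 0.990 in the others.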

How the results depend on the processing

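Counts of called members, and the ratio of the Dppa5a to the Fgf4 half-life in the cytosol, stayed within 1.5 times the reported value in 96 alternatives. The counts moved further in 10. In the cytosol between 120 and 20 min 1 member (Fgf4, -0.51, adjusted p = 0.000556 with edgeR) was called with the replicate number as a block, and 0 to 1 when a replicate was left out. Between the replicate pairs at 20 min, leaving out a replicate gave 1 to 6 called members (6 with Dppa4, without replicate 1). For nuclear against cytosolic shares it gave 0 to 4 at 20 min and 0 to 2 at 60 min, and without a log scale 2 were called at 20 min. Directions reversed only where the reported value had not passed. Dppa4 in nucleus against cytosol was 0.16 with library totals, 0.13 without a filter on low counts and 0.057 with the 120 min libraries of replicates 3 and 4 (-0.20 to 0.11 without a replicate), and Trim28 was -0.011 to 0.38 without a replicate. In membrane against cytosol Dppa3 was -0.25 and Dppa5a -0.0094 with library totals (Dppa3 -0.026 to 0.18 without a replicate). Without a replicate the ranges also crossed 0 for Fgf4 between 120 and 60 min in whole cells (-0.14 to 0.25), for Dppa3 (-0.46 to 0.62), Dppa4 (-0.060 to 0.54) and Dppa5a (-0.62 to 0.35) between replicate pairs, for the membrane shares of Dppa3 (-0.85 to 1.84), L1td1 (-0.019 to 0.046) and Utf1 (-0.11 to 0.049), and for the nuclear shares of Fgf4 at 20 min (-0.21 to 0.012) and Dppa3 at 60 min (-0.95 to 0.53). The cause was not tested. By the labels, replicates of different times share only a number. With them as a block, 1044 genes in place of 170 were called between 120 and 20 min in the cytosol, 1803 in place of 518 in the nucleus and 31 in place of 19 in whole cells. Same-numbered libraries of these 2 times correlated at 0.62 in the cytosol, 0.41 in the nucleus and -0.11 in whole cells, where a crossed pairing, added after the data were seen, called 18 and no member. DESeq2 called 258, 942 and 111 genes in these 3 comparisons, and no filter 436, 1242 and 227. Without a filter 49 genes were called between 120 and 60 min and 42 between 60 and 20 min. Leaving out replicate 3 or 4 gave 862 and 27 genes in the cytosol, 290 in the nucleus without replicate 4, and 0 in whole cells either way. Nuclear against cytosolic levels called 15388 genes without a filter in place of 10212, and membrane against cytosolic levels 10506 with library totals in place of 5727. For shares, 3114 in place of 5910 genes were called at 20 min without a log scale, 1908 in place of 3329 at 60 min with a minimum of 100 T, and, between membrane fraction and cytosol, 126 without a log scale and 250 and 108 without replicate 3 or 4 in place of 395. Of the genes called between nucleus and cytosol, 64.6% were higher in the nucleus with DESeq2, 74.9% without a filter, and 65.5% to 66.3% without replicate 1, 2 or 5 or with the 120 min libraries of replicates 3 and 4; in the membrane fraction 78.1% were higher without a filter. The apparent half-lives moved by more than the spread between odd and even replicates in 63 alternatives and by less in 193, and the ratio of Dppa5a to Fgf4 in the cytosol was 33.6 to 45.1.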
